A study of Mus musculus with 12 samples.

Results

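The 10 genes described here code for enzymes of glycolysis and were taken by name: Hk2, Gpi1, Pfkl, Pfkp, Aldoa, Tpi1, Gapdh, Pgk1, Eno1 and Pkm. A read belonged to the set when its tail call was tagged PASS, its transcript was classed as mRNA and its gene name was in that list. All 10 genes had such reads, out of 14042 genes with at least 1 read kept, and all 10 were among the 9309 genes with the 30 reads over the 12 libraries that a test required. The rule uses names and no level, though the list was drawn up with earlier results of these data known.

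P19 is a mouse embryonal carcinoma line, a pluripotent tumour line that turns towards neurons under retinoic acid. Poly(A) RNA of wild-type P19 cells was read directly on nanopores at D0, D2, D4 and D6 of that differentiation, with 3 libraries a day. D0 cells grew in DMEM with 4500 mg/L glucose and 10% foetal bovine serum, whereas D2, D4 and D6 cells lay on poly-L-lysine in NDiff 227 medium with 500 nM retinoic acid, renewed daily. The medium, the serum, the retinoic acid and the day therefore changed together between D0 and every later day and cannot be told apart. The libraries of a day are described in the study's methods as biological replicates multiplexed by barcode, and p-values measure the spread between them. Between 120326 and 613756 reads were kept per library, and the D2 libraries were the shallowest.

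Glycolysis splits glucose into pyruvate in the cytosol. Its preparatory steps spend ATP to trap glucose and cut it into triose phosphates, and its later steps win ATP and NADH back. Several steps are run by alternative genes for the same reaction, such as Hk1 and Hk2, Eno1 and Eno2 or the M1 and M2 forms of Pkm, which differ between proliferating cells and mature tissues. Pluripotent and tumour cells are known for high glycolytic flux, and many of these genes are textbook targets of the hypoxia-inducible factors and of Myc.

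The transcripts of all 10 enzymes were less abundant on D2, D4 and D6 than on D0. The median log2 difference from D0 over the 10 genes was -2.06 on D2, -2.37 on D4 and -2.64 on D6, while the median over all genes tested was -0.05, 0.00 and 0.02. All 10 were called lower on each of the 3 days (limma-voom, Benjamini-Hochberg adjusted p of at most 0.05 over all genes), against 6.32% of all tested genes called lower on D2, 12.7% on D4 and 18.2% on D6. For none of the 10 did any library of a later day reach the lowest D0 library. The share of all genes without such overlap is not given here, so this is only a description. Hk2 and Pfkp reached 30 reads mainly through D0, which held 50 of the 60 reads of Hk2 and 30 of the 38 reads of Pfkp, so their place among the tested genes depended on their D0 level. Over the 8 other members the median was -2.06, -2.37 and -2.60. In bulk RNA, fewer cells with a transcript and less of it in each cell cannot be told apart.

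The levels below are reads scaled to a library of 1000000 kept reads (CPM), with library sizes corrected by the trimmed mean of M-values, and each is given for replicates 1, 2 and 3 in turn. A direct RNA read starts at the tail of 1 molecule, so the levels of different genes were not divided by transcript length. Coordinates are mm10. Between 6.934 and 100% of the reads of a member other than Gapdh had a mapping quality of at least 10. The fall against D0 was also tested on such reads alone. There the 9 members that kept 30 reads (without Pfkp) were all called lower on each of the 3 days. The share of all genes called lower in that fit is not given here, and Hk2 had 50 of its 60 reads on D0.

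Hk2, a hexokinase that phosphorylates glucose on entry (chr6:82725025-82774454, minus strand), was thinly covered. It stood at 23.7, 37.05 and 41.98 CPM on D0, at 7.84, 8.026 and 5.31 on D2, at 4.08, 0 and 0 on D4, and at 3.711, 6.292 and 2.707 on D6. The reads behind these levels numbered 10, 20 and 20 on D0 and no more than 3 in any later library. Pooled over the 3 libraries, Hk2 was 4.911-fold lower on D2 (exact 95% counting interval 1.803 to 18.73), 38.35-fold lower on D4 (6.574 to 1545) and 7.758-fold lower on D6 (3.112 to 24.93). These intervals cover counting error only. The call of Hk2 on D2 was lost without D0 replicate 2 or 3 and without any 1 of the D2 libraries, with limma-trend (limma adjusted p = 0.0827) and at a barcode confidence of at least 0.75 (limma-voom adjusted p = 0.0576).

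Gpi1, the isomerase that makes fructose 6-phosphate (chr7:34201330-34230336, minus strand), had 407.6, 515.0 and 476.5 CPM on D0. It had 211.7, 252.8 and 260.2 on D2, 228.5, 213.3 and 218.0 on D4 and 167.0, 159.4 and 181.4 on D6. Of the members with more than 100 reads it fell least, by 1.46 on the log2 scale at D6 (SE 0.145, limma-voom adjusted p = 7.82e-13).

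Pfkl and Pfkp are the liver-type and platelet-type subunits of phosphofructokinase, the committed step of the pathway. Pfkl (chr10:77986947-78009807, minus strand) had 229.9, 240.8 and 247.7 CPM on D0. It had 109.8, 40.13 and 42.48 on D2, 28.56, 37.5 and 37.1 on D4 and 14.85, 39.85 and 29.78 on D6. The first D2 library lay well above the other two, and the fall by D6 was 3.00 on the log2 scale (SE 0.289, limma-voom adjusted p = 2.33e-13), or 8.505-fold in CPM. Pfkp (chr13:6579768-6648777, minus strand) had 23.7, 24.08 and 14.69 CPM on D0 and no read in any D2 library, followed by 4.08, 2.344 and 6.956 CPM on D4 and 0, 2.097 and 5.414 on D6. On D2 it was at least 3.929-fold lower than on D0, taking 3 pooled reads as the limit that a count of 0 allows. On D4 and D6 its pooled reads were 4.602-fold lower (1.768 to 15.19) and 7.758-fold lower (2.413 to 39.72), and its call on D4 was lost without D4 replicate 2 (adjusted p = 0.085, limma-voom) and with limma-trend (adjusted p = 0.0503).

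Aldoa, the aldolase that cuts fructose 1,6-bisphosphate (leading transcript chr7:126795234-126799254, minus strand), showed the deepest fall of the well-covered members. Its D0 libraries had 1521.5, 1785.8 and 1589.1 CPM. The D2 libraries had 258.7, 224.7 and 254.9, the D4 libraries 159.1, 147.7 and 176.2, and the D6 libraries 200.4, 159.4 and 116.4. Aldoa was 10.28-fold lower on D6 than on D0, a log2 difference of -3.41 (SE 0.143, limma-voom adjusted p = 6.64e-30). Only 45.35% of its reads had a mapping quality of at least 10, and its 3 transcripts on this locus overlap.

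Tpi1, the triose phosphate isomerase (leading transcript chr6:124810586-124814296, minus strand), had 1360.3, 1491.3 and 1312.0 CPM on D0. It had 235.2, 369.2 and 276.1 on D2, 338.7, 316.4 and 317.7 on D4 and 267.2, 295.7 and 230.1 on D6. The D2 libraries of Tpi1 overlapped those of D4 and of D6, while its D6 libraries lay below its D4 libraries. Its log2 difference from D0 was -2.20 on D2 (SE 0.145), -2.10 on D4 and -2.39 on D6. The value from D4 to D6 was -0.29 and was not called (limma-voom adjusted p = 0.241).

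Gapdh, the dehydrogenase that makes the NADH of the pathway (leading transcript chr6:125161854-125165773, minus strand), was the most abundant member on every day. It had 10311.5, 12956.3 and 12173.0 CPM on D0, 6726.3, 5750.9 and 6616.6 on D2, 5210.3, 4638.5 and 4078.7 on D4 and 3151.0, 2646.7 and 2812.6 on D6. Each day lay wholly below the day before. The log2 difference from D0 was -0.90 on D2 (SE 0.0738), -1.37 on D4 and -2.05 on D6 (SE 0.0758, limma-voom adjusted p = 8.78e-33). Gapdh, often used as a reference transcript in expression measurements, was 4.116-fold lower at D6 than at D0 in CPM.

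Pgk1, the kinase that makes the first ATP of the pathway (chrX:106187100-106203699, plus strand), had 1898.3, 2047.0 and 1998.4 CPM on D0. It had 580.1, 529.7 and 424.8 on D2, 383.5, 316.4 and 280.6 on D4 and 252.4, 356.5 and 232.8 on D6. The D4 libraries lay below the D2 libraries, and D6 overlapped D4. Pgk1 was 7.061-fold lower at D6 (log2 difference -2.81, SE 0.124, limma-voom adjusted p = 7.81e-29). Its reads are among the safest of the set, since it has 1 transcript here and 99.08% of reads reached a mapping quality of 10.

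Eno1, the enolase that makes phosphoenolpyruvate (leading transcript chr4:150236952-150248879, plus strand), had 1706.3, 1522.7 and 1521.9 CPM on D0. It had 313.6, 232.8 and 430.1 on D2, 277.4, 210.9 and 271.3 on D4 and 222.7, 184.6 and 197.6 on D6, a fall of 7.856-fold by D6. Only 6.934% of its reads had a mapping quality of at least 10, and 90.85% of the 21-letter words of the near-identical copy Eno1b also occur in Eno1. The split of reads between Eno1 and Eno1b is therefore uncertain. Eno1b, with a mean of 1059.0 CPM on D0 and 126.8 on D6, moved by -2.33, -2.39 and -3.00 on the log2 scale, and the summed reads of both by -2.34, -2.55 and -3.01, close to the -2.34, -2.66 and -2.98 of Eno1 alone.

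Pkm, the pyruvate kinase that closes the pathway with its last ATP (leading transcript chr9:59656368-59679375, plus strand), had 3308.4, 3625.3 and 3472.0 CPM on D0. It had 885.9, 1216.0 and 1035.5 on D2, 1011.9, 977.4 and 971.6 on D4 and 979.8, 885.0 and 776.9 on D6. The log2 difference from D0 was -1.72 on D2 (SE 0.101), -1.82 on D4 and -1.99 on D6, a fall of 3.939-fold.

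**Figure D1:**
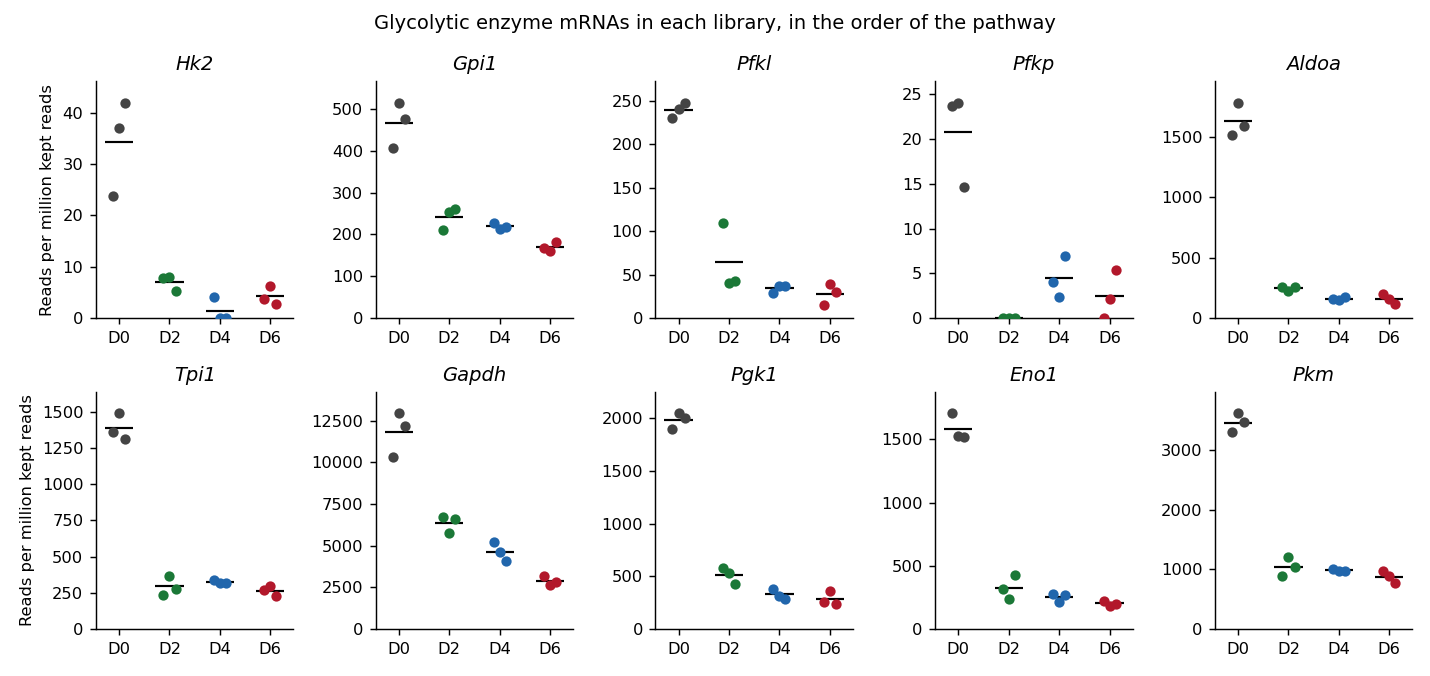
Level of each of the 10 enzymes in every library, in CPM on a linear axis from 0 that differs between genes, by day of differentiation, with 1 point a library and a short line at the mean of 3. All D0 points lie above all later points of the same gene, and Gapdh alone steps down at every interval without overlap, from 11813.6 CPM on average on D0 to 2870.1 on D6.

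Among the 1534 genes with a mean of at least 100 CPM, the members stood near the lower end of the differences from D0. Aldoa ranked 8th from the lowest on D2 and 7th on D4 and D6. Eno1 ranked 10th, 10th and 12th, Tpi1 12th, 15th and 18th, Pgk1 16th, 11th and 13th, and Pkm 20th, 21st and 25th. Gapdh moved from the 61st place on D2 to the 35th on D4 and the 24th on D6, while Gpi1 stayed at the 60th, 62nd and 58th.

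The order of the levels changed little at the top. Gapdh, Pkm and Pgk1 were the 3 most abundant members on each day, Gapdh and Pkm without overlap with the next gene. Pgk1 overlapped the next gene on D2, D4 and D6. Aldoa was the 4th on D0, where it overlapped Eno1, and the 7th on D4 and D6, while Tpi1 moved from the 6th place on D0 to the 4th on D4 and D6. Aldoa and Gpi1, apart by 1632.1 against 466.4 CPM on D0, overlapped on D2 and D6. Pfkl, Hk2 and Pfkp were the 3 least abundant throughout, and Hk2 and Pfkp overlapped on D0, D4 and D6.

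The timing was asked with the 3 intervals of 2 days. For most members the larger part of the fall lay in the first interval. As a share of the drop in mean CPM from D0 to D6, Tpi1 had reached 97.4% on D2, Aldoa 94.07%, Pkm 93.62%, Eno1 91.04%, Hk2 90.59%, Pgk1 86.42% and Pfkl 82.98%. Gpi1 had reached 75.66% and Gapdh, the slowest, 60.93%. On the log2 scale the share of the fall from D0 to D6 that lay before D2 was lower, with 92.23% for Tpi1, 86.19% for Pkm, 80.22% for Aldoa, 78.58% for Eno1, 71.66% for Pfkl, 70.13% for Pgk1 and 62.95% for Gpi1. For Gapdh it was 44.06%. For Hk2 it was 70.0%, and both shares of Hk2 rest on 4 reads on D2 and 5 on D6. On the Gapdh reads with a mapping quality of at least 10 the differences from D0 were -1.23 on D2 and -2.14 on D6, with the larger part before D2, and no order is read from these values.

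Between D2 and D4, Gapdh (log2 difference -0.46, SE 0.0831, adjusted p = 9.38e-05) and Pgk1 (-0.66, SE 0.153, adjusted p = 0.00382, both limma-voom) fell further, 2 of 10 against 1.02% of all genes. On the 5.529% of Gapdh reads with a mapping quality of at least 10, the value of Gapdh for this interval was 0.17 (limma-voom adjusted p = 0.867), against -1.23 on D2 and -1.06 on D4 for the difference from D0, so that a further fall between D2 and D4 was not seen on those reads. The call of Pgk1 was lost without D2 replicate 1 (-0.55, adjusted p = 0.0567) and after thinning to the smallest library (-0.67, limma-voom adjusted p = 0.109). Aldoa had a value of -0.60 with an adjusted p of 0.0687, close to the threshold, and it was called with scaling by library totals (-0.66, adjusted p = 0.0281) or by the median of ratios, with limma-trend, among genes with at least 100 reads, after thinning (-0.92) and without any 1 of the D6 libraries (limma-voom). On reads with a mapping quality of at least 10, where 1 member was called in this interval, Aldoa was not called. Between D4 and D6, with Eno1 counted without Eno1b, Gapdh was the only member called (-0.69, SE 0.0849, limma-voom adjusted p = 1.13e-08, and -1.08 on reads with a mapping quality of at least 10), against 3.92% of all genes. The summed reads of Eno1 and Eno1b were also called in this interval (-0.45, limma-voom adjusted p = 0.0252). Over both intervals together, from D2 to D6, 5 members were called lower, against 7.9% of all genes. These were Gapdh (-1.15), Pgk1 (-0.84), Aldoa (-0.67), Eno1 (-0.64) and Gpi1 (-0.54). With a mapping quality of at least 10 the values of Gapdh (-0.91, limma-voom adjusted p = 0.104), Aldoa (-0.55), Gpi1 (-0.50) and Eno1 (0.33) did not pass, while Pgk1 (-0.86) and Pkm (-0.36) were called by limma-voom. Of the 5, Eno1 was lost without D2 replicate 3 (-0.42, limma-voom adjusted p = 0.166) and Gpi1 without D2 replicate 2 or 3 or D6 replicate 2, and both after thinning (-0.52 and -0.60, limma-voom adjusted p = 0.136 and 0.0877). The values of Pkm (-0.28), Tpi1 (-0.19) and Pfkl (-0.85) did not pass, with adjusted p of 0.1003 for Pkm and 0.1087 for Pfkl by limma-voom. Pkm was called in 6 of the 12 fits that left out 1 library (-0.38 to -0.33), with scaling by the median of ratios and with 1 line per read, and Pfkl with limma-trend and without D2 replicate 2.

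The difference between the intervals was also tested. The change from D0 to D2 was more negative than that from D2 to D4 for Tpi1 (by 2.30 on the log2 scale), Aldoa (2.14), Eno1 (2.03), Pkm (1.62) and Pgk1 (1.31), 5 of 10 against 1.33% of all genes. On reads with a mapping quality of at least 10 the call of Aldoa was lost (-2.99, limma-voom adjusted p = 0.0536) and 4 members were called. Gpi1 had -0.75 (limma-voom adjusted p = 0.20). Gapdh had -0.44 (limma-voom adjusted p = 0.077), and it was called without D0 replicate 1 (-0.51, adjusted p = 0.0082), without D2 replicate 1 (-0.59), without D4 replicate 1 (-0.46) or 3 (-0.51), and for reads of barcode confidence of at least 0.75 (-0.56, limma-voom adjusted p = 0.0108). When 1 library was left out the value of Gapdh ranged from -0.5945 to -0.1924, so that its size and its call depend on single libraries. The second and the last interval differed for 0 of 10 members in the limma-voom fit and in a limma-trend fit, against 1.32% of all genes in either direction, and Hk2 alone had an unadjusted p under 0.05.

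**Figure D2:**
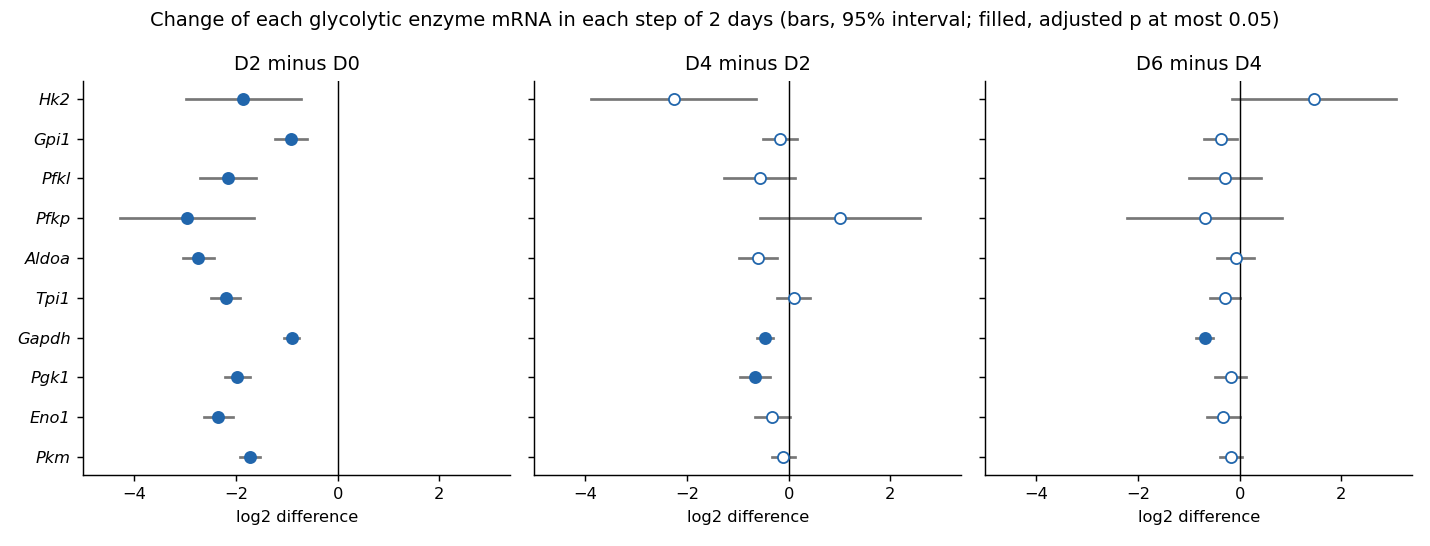
Log2 difference of each of the 10 enzymes over the 3 successive intervals of 2 days, with 95% intervals from the limma-voom fit and filled points where the adjusted p was at most 0.05. The D2 minus D0 interval holds the largest falls, down to -2.74 for Aldoa among the well-covered members, and from D4 to D6 Gapdh was the only one called lower with Eno1 counted without Eno1b.

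Taken as 1 pool, the 10 enzymes made up 1.952, 2.132 and 2.097% of kept reads in the D0 libraries. They made up 0.989, 0.8915 and 0.9544% on D2, 0.7431, 0.6723 and 0.6499% on D4 and 0.5219, 0.5266 and 0.5033% on D6, with no overlap between any 2 days. The mean share was 2.061% ± 0.0956 (SD, n = 3) on D0, 0.945% ± 0.0494 on D2, 0.688% ± 0.0486 on D4 and 0.517% ± 0.0123 on D6. It was 2.181-fold, 2.993-fold and 3.984-fold lower than on D0. Each comparison with D0 gave a two-sided exact permutation p of 0.10, the smallest that 3 against 3 libraries allow. Each day was sequenced in its own runs, 13 in all and none with more than 1 day, so the run and the day cannot be told apart. Within a day the runs ranged from 2.048 to 2.083% on D0, 0.9101 to 0.9447% on D2, 0.6544 to 0.7009% on D4 and 0.4992 to 0.524% on D6.

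Gapdh set much of that total. Gapdh alone went from 1.075% of kept reads to 0.661, 0.459 and 0.305%, 1.626-fold, 2.341-fold and 3.522-fold lower. The 9 others went from 0.986% to 0.284, 0.229 and 0.212%, 3.472-fold, 4.301-fold and 4.648-fold lower. Gapdh therefore made up 52.1% of the members' reads on D0, 69.9% on D2, 66.6% on D4 and 59.1% on D6, and Pkm 15.35, 11.56, 14.25 and 18.09%.

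By transcript, 24 transcripts of the members had reads and 19 had the 30 needed for a test. Of these 19, 18 were lower than on D0 on each of the 3 days, against 6.38% of all transcripts tested on D2, 9.6% on D4 and 15.8% on D6. Reads with a mapping quality of at least 10 alone gave 11 called lower on D2, 10 on D4 and 10 on D6. The single tested transcript of Hk2 had 50 of its 60 reads on D0 and passed the filter only through that day, so that its fall is no support for the count. The median log2 difference of the 19 was -2.10, -2.33 and -2.40, beside -0.18, 0.00 and -0.05 over all transcripts. A retained-intron transcript of Gpi1 (ENSMUST00000135243.2) was the exception on D2, with -0.46 (limma-voom adjusted p = 0.573). On D4 and D6 the exception was the Pkm transcript with the M1 exon, described next, which was 1 of 19 called higher on D6, against 13.5% of all transcripts.

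The reads of Gapdh were shared mainly between a transcript of 1420 nt (ENSMUST00000118875.7) and one of 1273 nt (ENSMUST00000117757.8). The share of all Gapdh reads on the longer one was 30.7, 61.3 and 48.0% on D0, 64.7, 31.4 and 43.2% on D2, 76.3, 73.1 and 49.4% on D4 and 61.8, 31.6 and 45.2% on D6. The libraries of 1 day were as far apart as the days. The median number of aligned bases of these reads ranged from 712 to 1233 over the libraries, and between 99.36 and 100% of reads with at least 1200 aligned bases were on the longer transcript. Only 5.529% of Gapdh reads had a mapping quality of at least 10. The split of Gapdh between transcripts is thus not read as a change here, and the level of Gapdh above is the sum over its transcripts. Gapdh has many processed pseudogenes, whose own reads were left out, so that its level is uncertain to that extent.

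Pkm carries a pair of mutually exclusive exons, of which the M1 exon is typical of muscle and brain and the M2 exon of embryonic and tumour cells. Both are the exon 9 of their transcript and 167 bases long. The M1 exon lies at chr9:59675029-59675195 and the M2 exon at chr9:59675568-59675734 (mm10, plus strand). They are printed 5′ to 3′ because they are what tells the forms apart, with the bases at which they differ in capitals:
M1 exon: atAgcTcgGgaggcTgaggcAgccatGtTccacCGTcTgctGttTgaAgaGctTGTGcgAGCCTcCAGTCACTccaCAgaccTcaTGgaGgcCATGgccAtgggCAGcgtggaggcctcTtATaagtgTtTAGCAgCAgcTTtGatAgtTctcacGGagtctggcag
M2 exon: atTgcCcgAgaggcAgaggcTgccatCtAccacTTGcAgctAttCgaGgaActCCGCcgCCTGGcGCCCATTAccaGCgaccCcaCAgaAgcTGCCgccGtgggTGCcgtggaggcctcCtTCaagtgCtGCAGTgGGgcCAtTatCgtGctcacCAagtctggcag
Of the 167 positions 64 differ and 103 (61.68%) are alike, spread over the whole exon.

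Counting reads that ran across this exon with at least 20 aligned bases on each side, M1 had 6, 16 and 7 reads on D0 beside 554, 1197 and 952 of M2. There were 0, 0 and 2 M1 reads on D2 beside 89, 152 and 122, and 8, 12 and 11 on D4 beside 178, 343 and 263. On D6 there were 28, 16 and 22 beside 175, 189 and 166. The M1 share was thus 1.071, 1.319 and 0.730% on D0, 0, 0 and 1.613% on D2, 4.301, 3.38 and 4.015% on D4, and 13.79, 7.805 and 11.7% on D6. M2 stayed the main form in every library, and the D4 and D6 libraries lay above all D0 and D2 libraries.

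The mean M1 share was 1.04% ± 0.296 (SD, n = 3) on D0, 0.538% ± 0.931 on D2, 3.90% ± 0.471 on D4 and 11.1% ± 3.04 on D6. The difference from D0 was +2.86 percentage points on D4 and +10.1 on D6 (two-sided exact permutation p = 0.10 each, the smallest possible), and -0.50 on D2 (exact permutation p = 0.40). Both parts of the ratio had moved by D6. M2 went from 1842.9 CPM across the exon to 651.8, 713.4 and 498.4, and M1 from 19.52 to 3.54, 28.76 and 65.67. On D4 the M1 level overlapped that of D0 (exact permutation p = 0.30). In the transcript fit the M1 transcript (ENSMUST00000163694.3) was called higher on D6 than on D0, by 1.33 on the log2 scale (SE 0.363, limma-voom adjusted p = 0.00419), from 32, 2, 31 and 66 reads on the 4 days. With reads of mapping quality of at least 10 alone, its value was 0.93 (limma-voom adjusted p = 0.0587). With a mapping quality of at least 30, the M1 share exceeded that of D0 by 0.933 points on D4 and 2.693 on D6. The size of the M1 share therefore depends on reads whose placement is uncertain, whereas its direction did not.

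**Figure D3:**
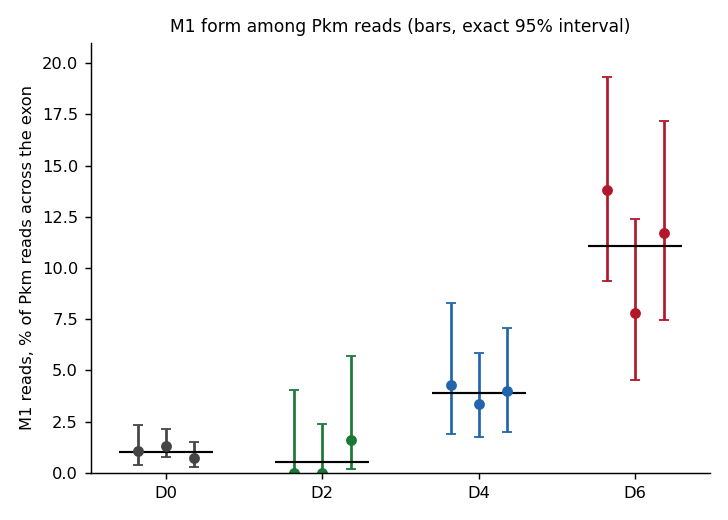
M1 reads as a percentage of Pkm reads across the exclusive exon in each library, by day, with exact 95% binomial intervals and a line at the mean of 3. The D6 libraries lie between 7.805 and 13.79%, above the D4 libraries (3.38 to 4.301%) and the D0 libraries (0.730 to 1.319%).

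The ratio of alternative genes within a step was followed as the log2 ratio of reads in each library. Over 6 pairs and 3 days, 18 exact permutation tests were run and the smallest adjusted p was 0.1636, so that none could pass. The ratio of Hk2 to Hk1 moved by -1.81, -3.65 and -2.82 from D0 on D2, D4 and D6. On reads with a mapping quality of at least 10 the D2 and D4 moves of this ratio were larger. With 0 reads of Hk2 in 2 of the D4 libraries, its D4 value rests largely on the 0.5 reads added to each count. That of Pfkl to Pfkm, the muscle-type subunit, moved by -1.30, -2.28 and -2.79, from a log2 ratio of 2.12 on D0 to -0.66 on D6. That of Eno1 to Eno2, the neuronal enolase, moved by -0.26, -2.85 and -3.61, from 7.12 on D0 to 3.51 on D6. Eno1 thus still had more reads than Eno2 on D6, and Eno2 had 46 reads in all libraries together. Only 6.934% of Eno1 reads had a mapping quality of at least 10. With reads of that quality alone the D4 and D6 moves of this ratio were smaller. On D2 Eno2 had 0 reads, so that the D2 value of this ratio is set by the 0.5 reads added to each count, and no change is read from it. The ratio of Aldoa to Aldoc moved by -0.65, 0.48 and 0.98, and that of Pfkl to Pfkp by 0.956, -0.817 and -0.466. On reads with a mapping quality of at least 10 these 2 ratios changed sign, to -0.7506 on D6 for Aldoa to Aldoc and to -0.1654 on D2 for Pfkl to Pfkp, and no direction is given for them. Pfkp had 0 reads on D2, so that the D2 value of its ratio is likewise set by the reads added.

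Poly(A) tail lengths were compared for the 8 members with at least 10 reads a library on average and at least 3 in each, that is without Hk2 and Pfkp. The poly(A) tail is the run of adenosines at the 3′ end of a messenger RNA, and its length is here the median over the reads of a gene in a library. The tail changes were small beside those in abundance. Of the 8 members, 2 were called shorter than on D0 on D2, 1 on D4 and 1 on D6 (limma on the medians), against 1.93%, 2.4% and 2.4% of the 4205 genes tested. The median difference of the 8 was -8.73 nt on D2, -5.74 on D4 and -4.85 on D6, beside -2.83, -0.96 and 4.47 nt over all genes.

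Gapdh tails had medians of 92.41, 95.28 and 97.78 nt on D0. They had 84.31, 86.28 and 86.53 nt on D2, 85.73, 83.76 and 86.21 on D4 and 81.9, 88.17 and 86.54 on D6, all below D0. The differences were -9.45 nt on D2 (SE 1.76, limma adjusted p = 0.00163), -9.92 on D4 (adjusted p = 0.000404) and -9.62 on D6 (adjusted p = 0.000551). On the few Gapdh reads with a mapping quality of at least 10 these calls were lost, with -7.55, -6.48 and 0.32 nt (limma adjusted p = 0.727, 0.925 and 0.992).

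Pgk1 tails had medians of 101.1, 110.7 and 111.7 nt on D0 and 79.49, 85.07 and 81.78 on D2, followed by 104.6, 96.61 and 100.8 on D4 and 107.0, 88.94 and 93.77 on D6. The D2 difference was -25.7 nt (95% interval -34.0 to -17.4, limma adjusted p = 0.000559). The values of D4 (-7.16 nt, adjusted p = 0.839) and D6 (-11.3 nt, adjusted p = 0.217) were not called by limma. The D6 value ranged from -16.47 to -7.428 nt when 1 library was left out, and it was called without D6 replicate 1 (limma adjusted p = 0.023), with the mean tail (-11.32 nt, adjusted p = 0.0429) and with the log2 mean (adjusted p = 0.0145, limma), so that no return to the D0 length is read from it. The change from D2 to D4 was +18.6 nt with a limma adjusted p of 0.0561. That change was called among genes with at least 20 reads on average and 10 in every library (limma adjusted p = 0.0131), on reads with a mapping quality of at least 10 (18.2 nt, limma adjusted p = 0.0325) and without D0 replicate 1 or D6 replicate 1. The share of Pgk1 tails of 30 to 90 nt went from 38.45, 33.03 and 31.93% on D0 to 51.35, 50.76 and 55.0% on D2 (+17.9 points, SE 2.76, limma adjusted p = 4.54e-05), with means of 39.89% on D4 and 43.55% on D6. From D2 to D4 the share of Pgk1 changed by -12.48 points (limma adjusted p = 0.0332). The 0.0238% of all genes called lower in this interval is Pgk1 itself. This call was lost without D0 replicate 2 or 3, D2 replicate 3 or any 1 of the D4 libraries (-13.28 to -11.16 points), at a barcode confidence of at least 0.75 (-11.67, limma adjusted p = 0.123) and when weighted by reads (-12.38, limma adjusted p = 0.323).

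The share of 30 to 90 nt tails of Gapdh was 44.12% on D0, 49.97% on D2 (+5.86 points, limma adjusted p = 0.0182), 49.51% on D4 (+5.39, adjusted p = 0.0389) and 48.62% on D6. Members called higher in this share numbered 2, 1 and 0 of 8 on D2, D4 and D6, against 2.24%, 2.21% and 2.19% of all genes, and on D6 3 of 8 members (Gpi1, Gapdh and Pgk1) and 332 of the 4205 genes had an unadjusted p under 0.05 in the limma fit. The D2 call of Gapdh in this share was lost without D0 replicate 2 or 3 or D2 replicate 1 or 3 (4.969 to 5.482 points), and the D4 call without D0 replicate 2 or 3, D4 replicate 1 or 3 or D6 replicate 3 (4.616 to 5.614 points). Both were lost for reads of barcode confidence of at least 0.75 (limma adjusted p = 0.0569 and 0.0705) and of mapping quality of at least 10 (limma adjusted p = 0.7496 and 0.9627). The share of tails under 30 nt was called higher for 0 of 8 members on any day by limma, against 0.0%, 0.333% and 0.856% of all genes, and 1, 0 and 1 of 8 members had an unadjusted p under 0.05, beside 283, 339 and 319 of the 4205 genes.

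The other 6 members were not called in median tail on any day with all 12 libraries. The values on D2, D4 and D6 were -8.0, -18.3 and -14.5 nt for Gpi1 and -12.0, -30.2 and -23.0 for Pfkl, the least covered of the 8. They were -3.99, 2.51 and 11.01 nt for Aldoa, 4.37, 1.26 and 6.15 for Tpi1, and 0.61, -4.33 and 0.80 for Eno1. When 1 library was left out, the values ranged from -15.01 (without D2 replicate 3) to -2.932 nt (without D2 replicate 2) for Gpi1 on D2 and from -18.8 to -9.144 for Gpi1 on D6, where the smaller value was that without D6 replicate 1. They ranged from -42.66 (without D4 replicate 3) to -18.55 nt (without D4 replicate 1) for Pfkl on D4 and from 2.744 (without D6 replicate 3) to 15.27 for Aldoa on D6, so that the sizes rest on single libraries. The sign of the Aldoa value changed in such fits on D2 (-9.581 to 6.872 nt) and D4 (-7.228 to 9.752 nt). So did that of Eno1 on D2 (-1.991 to 4.232 nt) and D6 (-2.901 to 4.007 nt) and that of Tpi1 on D4 (-0.4683 to 2.902 nt). Pkm tails had medians of 101.8, 103.1 and 105.8 nt on D0 and 83.0, 96.35 and 99.87 on D2. The D2 difference of Pkm was -10.5 nt with a limma adjusted p of 0.117. It was called among genes with at least 20 reads on average and 10 in every library (limma adjusted p = 0.0384) and without D2 replicate 3 (-13.9 nt, limma adjusted p = 0.0235), and it was -5.46 nt without D2 replicate 1, the lowest library (limma adjusted p = 0.534). The median over all kept reads of a library moved too, from 100.2 to 105.5 nt on D0 to 96.55 to 98.45 on D2, 95.22 to 98.25 on D4 and 100.6 to 102.7 on D6. Pooled over the D0 libraries, the 50 reads of Hk2 had a median tail of 121.3 nt and the 30 reads of Pfkp one of 152.6 nt.

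**Figure D4:**
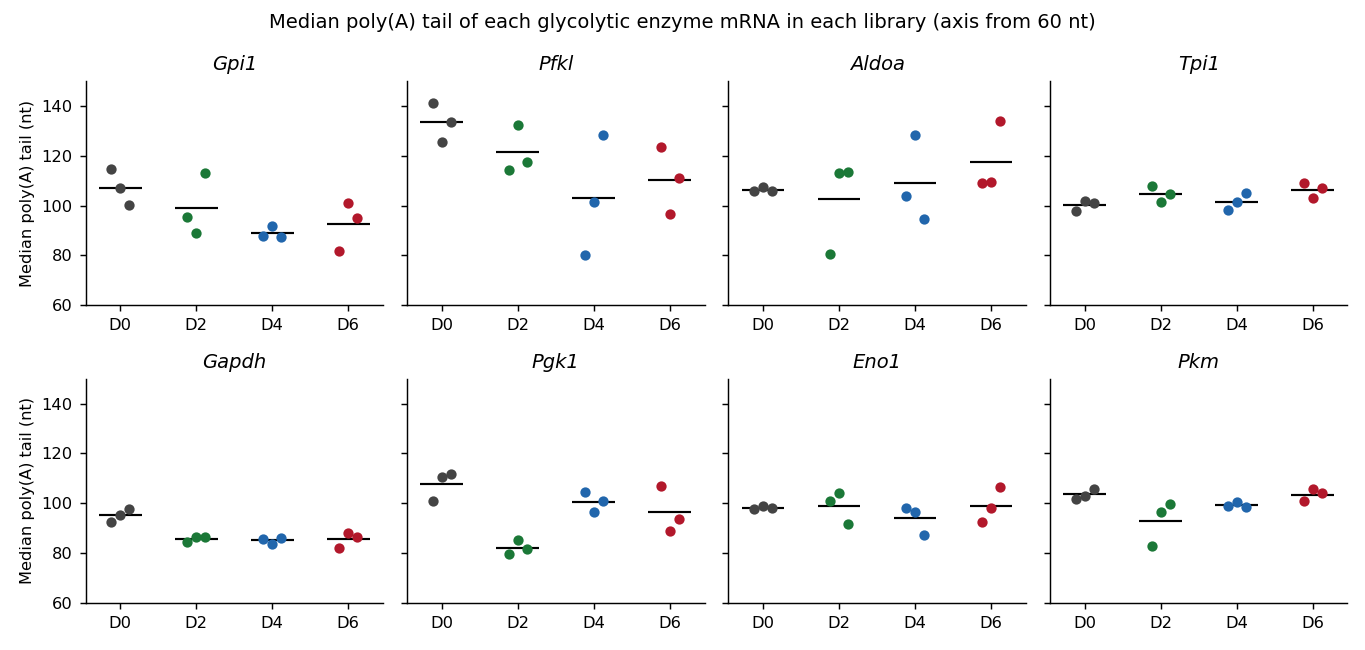
Median poly(A) tail length in nt of the 8 members with enough reads, with 1 point a library by day, a short line at the mean of 3 and an axis that starts at 60 nt. Pgk1 dips on D2 (79.49 to 85.07 nt) below its D0 libraries (101.1 to 111.7 nt), and Gapdh lies below its D0 libraries on all later days.

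The start regions of the members were looked at because the genes fell together. The RefSeq tables for GRCm38.p6 hold 15 windows for the 10 members, read here over the 250 bases before the start. The letters ACGTG and GCGTG, cores of the motif bound by hypoxia-inducible factors, were searched on both strands. ACGTG is also part of the E-box CACGTG that Myc binds. ACGTG stood in 5 of the 15 windows, GCGTG in 6 and either in 11 (73.33%), while of all 32851 windows 16.57% held ACGTG, 28.16% GCGTG and 38.6% either. Several windows of Aldoa and Eno1 overlap, so that the 15 windows are not independent, and the windows of Tpi1 and Gpi1 had no match. A match is a description of the letters, not of binding. The windows of Pgk1 (chrX:106186850-106187099, plus strand) and Hk2 (chr6:82774455-82774704, minus strand), each with 2 matches to ACGTG, are shown with the matches in capitals, which read CACGT where they lie on the other strand:
Pgk1: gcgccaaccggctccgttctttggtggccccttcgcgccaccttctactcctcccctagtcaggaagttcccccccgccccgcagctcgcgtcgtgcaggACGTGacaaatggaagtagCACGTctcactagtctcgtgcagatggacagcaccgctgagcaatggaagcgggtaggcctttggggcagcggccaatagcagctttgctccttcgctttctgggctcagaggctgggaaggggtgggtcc
Hk2: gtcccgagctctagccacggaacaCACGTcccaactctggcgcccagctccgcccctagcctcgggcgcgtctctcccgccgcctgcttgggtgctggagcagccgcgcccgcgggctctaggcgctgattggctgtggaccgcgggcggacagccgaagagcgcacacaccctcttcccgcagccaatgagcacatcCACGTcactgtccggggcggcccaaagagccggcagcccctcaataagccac

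Other genes of the pathway, from a list of 16 taken by name, did not all follow. Of these 13 had reads and 9 were tested. On D6, 3 were called lower by limma-voom, beside 18.2% of all genes called lower and 19.4% called higher. These were the mutase Pgam1 (-2.42), the aldolase Aldoc (-4.30) and the muscle enolase Eno3 (-2.01). Aldoc had 77 of its 90 reads on D0 and passed the filter only through that day. The hexokinase Hk1 had 0.11, Adpgk -0.10, Pfkm -0.36, Bpgm 0.34 and Eno2 0.62, none of them called. Their median was -0.23 over the 8 genes other than Hk3, against -2.64 for the 10 members. Hk3 had no read on D0 or D6, 4, 3 and 4 reads on D2 and 3, 13 and 5 on D4, at least 9.33-fold and 9.13-fold more than 3 pooled reads on D0 would give.

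Genes around the pathway numbered 22, of which 16 were tested, with a median of -0.32 on D6. Of all genes tested, 18.2% were called lower and 19.4% higher on that day. The 6 called lower were Pdk1 (-3.92), the kinase that shuts pyruvate dehydrogenase, Ldha (-3.74), which turns pyruvate into lactate, the pyruvate dehydrogenase subunits Pdha1 (-1.41) and Dlat (-0.80), and the pentose phosphate enzymes Taldo1 (-0.96) and Tkt (-0.56). Pdk1, with 77 of its 92 reads on D0, passed the filter only through that day. The 3 called higher, a count near the share over all genes, were the mitochondrial pyruvate carriers Mpc1 (3.29) and Mpc2 (1.45) and the lactate dehydrogenase Ldhb (0.44). Ldha had 589, 806 and 621 reads on D0, 20, 34 and 36 on D2, 25, 46 and 51 on D4 and 38, 59 and 24 on D6, and its level dropped on D2 with those of the members. Of 16 citric acid cycle enzymes, all tested, 4 were lower on D6 and 0 higher, with a median of -0.18. The count of 4 is not far from the 18.2% of all genes called lower. The lowest values were those of Suclg2 (-1.73) and Idh3a (-1.29), and the values of Sdhb (0.28, limma-voom adjusted p = 0.1005) and Idh3g (0.41, limma-voom adjusted p = 0.0649) did not pass.

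**Figure D5:**
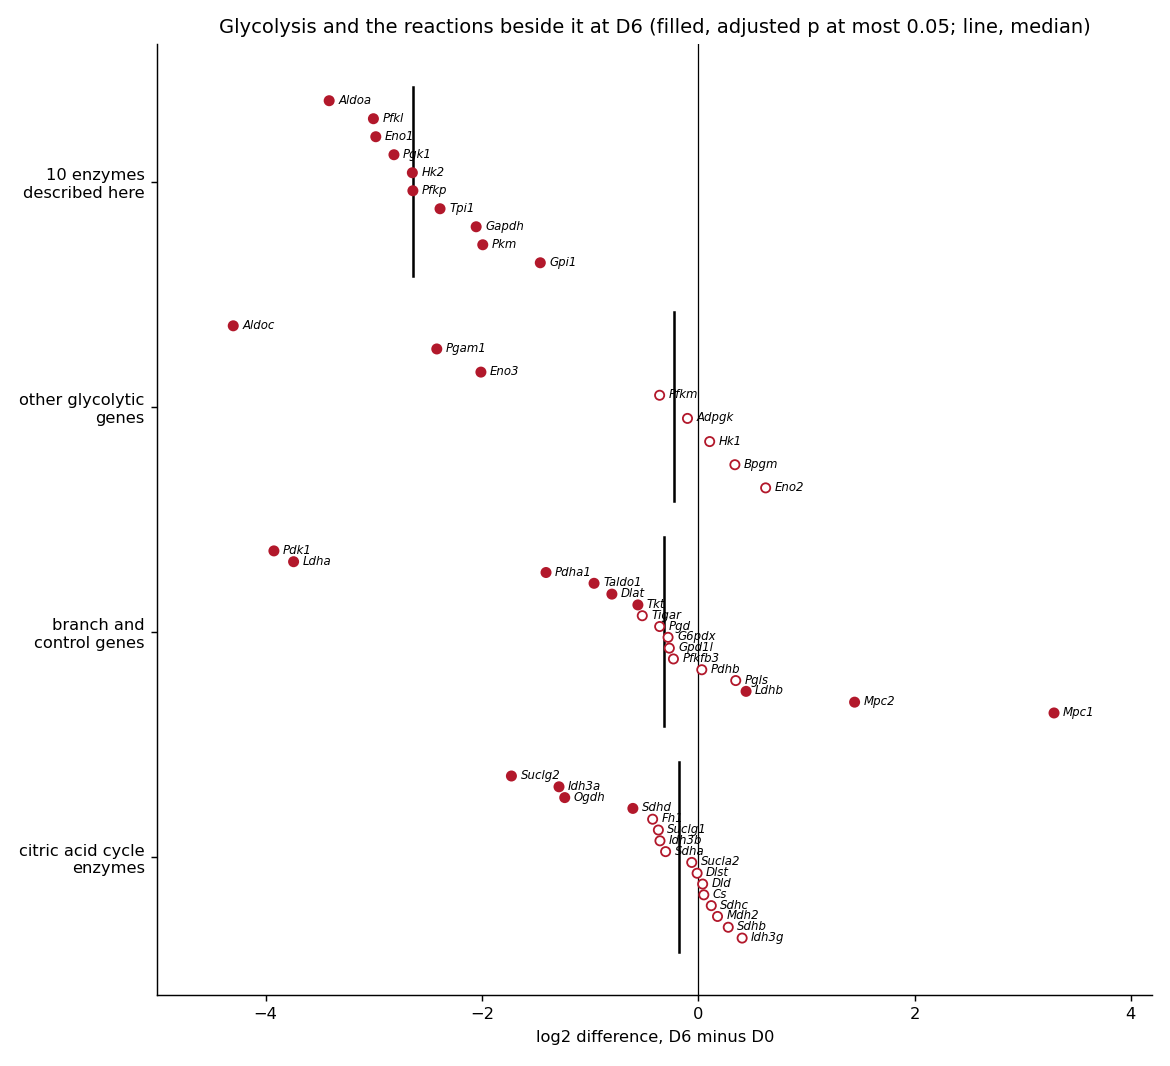
Log2 difference between D6 and D0 of the 10 members and the tested genes of 3 further lists (other glycolytic genes without Hk3, branch and control genes, citric acid cycle enzymes), with 1 point a gene from the limma-voom fit, filled where called, and a vertical line at the median of each list. All 10 members lie below -1.4, while the citric acid cycle enzymes run from -1.73 to 0.41 with a median of -0.18. The lowest of them, Suclg2, lies below the member Gpi1 (-1.46).

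The genes most like the members over the 12 libraries were found by the correlation of their log2 CPM with the mean of the members, among 3316 genes with at least 200 reads. They were Pgam1 (r = 0.986), Fam162a (0.984), Chchd10 (0.980), Mif (0.977), Ldha (0.977), Pou5f1 (0.977), Slc2a3 (0.975), a neuronal-type glucose transporter, and Itgb5 (0.973). These values are a description over 12 libraries that share 4 days, and any gene high on D0 and low afterwards gives a high r. The members themselves had r with the mean of the others from 0.78 (Hk2 and Pfkp) to 0.986 (Pgk1).

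The markers of the labelled cells moved with the same days. Pou5f1, which defines pluripotent cells, had a mean of 1705.9 CPM on D0, 6.626 on D2, 0 on D4 and 0.9024 on D6. The sum of 8 pluripotent cell markers was 1967.0 to 2267.4 CPM on D0 and 125.4 to 228.6 in the later libraries, and Zfp42 and Dppa5a were at 0 in all. The sum of 10 neuron markers was 483.5 to 545.8 CPM on D0, 125.4 to 244.8 on D2, 1468.9 to 1778.5 on D4 and 2647.5 to 2957.1 on D6. On D6 10 of 10 were called higher, against 19.4% of all genes. Apart from Tubb3 and Stmn2 they had few reads on D0 and D2 (0 for Dcx and Snap25) and passed the filter through later days. The calls of those genes are thus no support for the count. Sox2, which neural progenitors also express, made up most of the later sum, with a mean of 263.2 CPM on D0, 150.7 on D2, 152.9 on D4 and 199.2 on D6. The fall of the enzymes on D2 came with the fall of Pou5f1 and before the rise of the neuron marker sum. Astrocyte, endoderm and mesoderm marker sums were at most 29.4 CPM in any library, with Aqp4, S100b, Sox17, Gata4, Afp, T and Tnnt2 at 0. The part of changing cell composition in the levels of the enzymes was not tested.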

How the data were processed

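Direct RNA sequencing of 12 P19 libraries, 3 each of D0, D2, D4 and D6, had been made with poly(A) RNA on R9 MinION flow cells. The authors aligned reads with minimap2 2.20 to mm10 transcripts (GENCODE vM17) and deposited 1 table with a line per read, giving transcript, run, library barcode and a poly(A) tail length in nt estimated by the authors. It also holds the mapping quality, a score deposited as the aligner gives it, and the barcode confidence, a deposited fraction. A further table of the authors holds log2 fold changes and p-values of their own DESeq2 comparison and was not used.

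Of 6306434 lines, 69 were malformed and 289260 (4.587%) had no library. Of 6017105 assigned lines 4673531 (77.671%) were PASS, of which 0.176% repeat a read, and 4274320 reads of class mRNA remained once pseudogenes and mitochondrial genes were left out. Reads were tallied per gene and transcript, scaled by the trimmed mean of M-values, and fitted with limma-voom (limma 3.58.1, R 4.3.3) with all 12 libraries in 1 fit. Features with at least 30 reads were tested, p-values were adjusted by Benjamini-Hochberg over all of them, and calls were made at 0.05. Tails were fitted with limma on medians and shares per gene and library (genes with 10 reads a library on average and at least 3 in each). For single values, exact permutation tests (two-sided) over libraries were used. The contrast of D6 with D2 was added after the single intervals were seen. Scripts used Python 3.11.15, numpy 2.4.6, pandas 2.3.3, scipy 1.17.1 and matplotlib 3.10.9, and the fits were tested on simulated data. Transcript structures came from GENCODE vM21, in which all member transcripts have the deposited coordinates.

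The members and the other gene lists were chosen with earlier results of these data known. Named were all members and their transcripts with 30 reads, other glycolytic genes with 30 reads, branch genes called at D6, the 2 largest of the citric acid cycle values each way (1 enzyme of that list is not reported here and left out of its counts), and the 8 genes most alike; the Gapdh, Eno1b and Ldha read details were added after their values were seen. Intervals and limits on reads cover counting error only, and shallow libraries (D2) carry the widest error. Alternatives covered scaling, filters, mapping quality, barcode confidence, thinning to equal depth, other fits, a replicate block and leaving out each library.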

Additional observations from a re-analysis of the deposited data

How the results depend on the processing

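The fall of the members against D0 kept its direction under every alternative run, and when 1 library was left out 8 to 10 members were called on D2 and 9 to 10 on D4 and D6. Without D0 replicate 1 or 2 only 9 members kept 30 reads, and on D6 every tested member was called in each of these fits. With limma-trend Hk2 on D2 and Pfkp on D4 were not called. Scaling by library totals moved the median of all genes to 0.13, 0.12 and 0.26 on D2, D4 and D6 and the members' median to -1.88 on D2 and -2.41 on D6. The median was -2.446 on D6 for reads of barcode confidence of at least 0.75, and -1.815 on D2 and -1.965 on D4 after thinning to the smallest library. After thinning, the D4 minus D2 median was -0.514 and 3 members were called from D2 to D6.

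Reads with a mapping quality of at least 10 gave a D4 median of -1.977, a D4 minus D2 median of -0.1016 and a D6 minus D4 median of -0.4031, with 1 member called from D2 to D4 and 2 from D2 to D6. On them Gapdh had 0.165 from D2 to D4, Eno1 0.3269 from D2 to D6 and the Gapdh median tail 0.3233 nt on D6. The transcripts called lower were 11, 10 and 10, the share fell 3.085-fold, 3.61-fold and 4.25-fold, the difference between the first intervals was called for 4 members (Aldoa was lost), shorter tails numbered 1, 0 and 0, and a higher share of 30 to 90 nt was called for 1 member on D2 and 0 on D4. The ratios became -3.205 and -5.036 (Hk2 to Hk1, D2 and D4), -0.1654, -1.777 and -1.342 (Pfkl to Pfkp), -3.172 (Pfkl to Pfkm, D4), -1.949 and -0.7506 (Aldoa to Aldoc, D2 and D6) and -2.546, -1.833 and -2.715 (Eno1 to Eno2). A mapping quality of at least 30 gave M1 differences of 0.9329 points on D4 and 2.693 on D6. These settings hold fewer reads, and the cause of the changes was not tested.

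Summed Eno1 and Eno1b reads gave 2 members called from D4 to D6 (Gapdh and the Eno1 sum), and limma-trend 4 from D2 to D4. The share without Gapdh was 3.472-fold, 4.301-fold and 4.648-fold lower, and with reads of all classes 4.252-fold lower on D6. Shorter tails on D6 numbered 2 with the mean and 2 with the log2 mean. Members with a higher share of 30 to 90 nt numbered 2 on D4 and 2 on D6 when weighted by reads, 1 on D6 with at least 20 reads on average, and 1 on D2 and 0 on D4 at a barcode confidence of at least 0.75. A pseudocount of 1 read gave ratios of 0.08669 (Pfkl to Pfkp, D2) and -1.123 (Eno1 to Eno2, D2).

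Leaving out 1 library gave members' medians of -2.112 to -1.912 (D2), -2.616 to -2.293 (D4), -2.859 to -2.515 (D6), -0.6089 to -0.2387 (D4 minus D2), -0.819 to -0.5865 (D6 minus D2) and -0.3992 to -0.278 (D6 minus D4). Calls ranged from 1 to 3 from D2 to D4 and 3 to 6 from D2 to D6. Lower transcripts ranged from 13 to 18 on D2. Shorter tails ranged from 2 to 3 on D2 and 1 to 2 on D6, and higher shares of 30 to 90 nt from 1 to 3, 0 to 1 and 0 to 2. For tails under 30 nt the D2 count was 0 to 1, and for the difference between the first intervals 5 to 6. The members' share was 3.914-fold to 4.089-fold lower on D6. The M1 differences were -1.04 to -0.2337, 2.657 to 3.118 and 8.713 to 11.71 points. Ratios ranged from -1.139 to -0.1505, -0.457 to 1.081 and 0.5394 to 1.698 for Aldoa to Aldoc.

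Of the correlations between libraries of different days, 4 of 18 with the same replicate number exceeded 0.1 (median 0.0337). Among those with different numbers it was 2 of 36 (median 0.000873). The main fits held no replicate term, and whether libraries of the same number share a component was not tested. With a replicate block, 10, 10 and 10 members were called lower than on D0, 3 from D2 to D4 (with Aldoa, -0.59, limma-voom adjusted p = 0.031), 5 from D2 to D6, and 1 member (Gapdh) had a higher share of 30 to 90 nt on D6. The block also brought 4 further values past the threshold, with unchanged size: Gapdh in the difference between the first intervals (-0.4451, limma-voom adjusted p = 0.0187), the Pkm median tail (-10.5 nt, limma adjusted p = 0.0449) and its share of 30 to 90 nt (8.509 points, limma adjusted p = 0.0399) on D2, and the Pgk1 median tail from D2 to D4 (18.55 nt, limma adjusted p = 0.0389). With the block, medians were -2.067, -2.365 and -2.574.

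Depth limits Hk2 and Pfkp most, with 0 to 3 reads in the later libraries, and the tails of Pfkl.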
